A study of Rattus norvegicus with 9 samples.

Results

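The S100 proteins are small calcium-binding proteins, and 10 of their genes, S100a1, S100a3, S100a4, S100a6, S100a8, S100a9, S100a10, S100a11, S100a13, and S100a16, were taken by symbol from a given list out of the 35362 genes of the deposited table. The list was drawn up with earlier results of these data known, and other S100 genes of the table, such as S100a5 and S100b, lie outside it. In cells grown from perirenal and epididymal fat, S100a6, S100a10, and S100a11 had 2.70 to 3.56 times the level of cells grown from subcutaneous fat. S100a4 differed from them, because it was higher in the perirenal cells alone, and S100a16 was lowest in subcutaneous, higher in perirenal, and highest in epididymal cells. S100a8 and S100a9, the genes of the neutrophil and monocyte protein calprotectin, were almost without counts.

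S100 proteins carry a pair of EF-hands, helix-loop-helix folds that hold a calcium ion, and most of them work as dimers. When calcium binds, a hydrophobic surface opens and takes up a partner, such as an annexin, a non-muscle myosin, or a cytoskeletal protein. S100A10 is the exception, since its EF-hands no longer need calcium, and it forms a tetramer with annexin A2 at the membrane. Several members are also released and act on cell surface receptors, among them RAGE (gene Ager) and TLR4. In mesenchymal cells S100A4 has long been used as a fibroblast marker, and S100A6 was named calcyclin for its expression in growing cells.

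RNA was measured by sequencing in mesenchymal stem cells of male Sprague Dawley rats, which were 6 weeks old, unmodified, and fasted before the fat was taken. The groups were SASCs from the subcutaneous fat of the groin, PASCs from the fat around the kidney, and EASCs from the epididymal fat near the testis, all at passage 3 and with 3 libraries each. The cells were selected by adherence to plastic in medium with serum, so they are an expanded population and not the fat tissue itself. Per the methods, RNA came from wells of a culture plate with 6 replicates in a group, of which the table holds 3 libraries. Neither the labels nor the methods tie wells to separate rats, and all sample titles share the prefix sd1, whose meaning is not given. The p-values thus measure only the spread between these libraries, which may be technical.

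The libraries held 17591916 to 30299032 counts, of which genes of ribosomal RNA took 10.2% to 15.3% in SASCs, against 22.2% to 32.7% in PASCs and 15.8% to 40.1% in EASCs. Reads of ribosomal RNA were counted for Rn45s and again for Rn18s or Rn28s, with 6064866 and 6061323 counts in EASCs replicate 3. The totals thus hold such reads more than once, and the shares overstate the share of reads. Levels below are CPM, counts scaled to a common library size after TMM (which sets library sizes on the bulk of the genes), or FPKM, the same value per kilobase of gene length, which alone serves to compare genes with each other. A count of 3 is worth 0.104 to 0.159 CPM, and this limit covers counting error only. The labelled cell type was checked against 10 mesenchymal stem cell markers, of which Thy1, Cd44, Nt5e, Eng, and Itgb1 had at least 59.97 ± 3.69 CPM (SD, n = 3) in every group. Pdgfrb had at least 317 mean CPM, and Ly6al was at 0 everywhere. Several of these markers differed between groups. Pdgfra, Vcam1, and Cd34 were called lower in PASCs against SASCs, Pdgfra was called lower and Eng and Itgb1 higher in EASCs against SASCs, and Nt5e, Eng, Vcam1, and Cd34 were called higher in EASCs against PASCs. Cd34 had 3.29, 0.581, and 3.90 mean CPM and Vcam1 43.4, 11.2, and 27.7 mean CPM in SASCs, PASCs, and EASCs. The leukocyte gene Ptprc reached 3.06 ± 0.202 CPM (SD, n = 3) in EASCs and less in the other groups. Among markers of other cells, the sum of 9 mesothelial genes spanned 21.6 to 23.3 CPM in the SASC libraries, 227 to 229 CPM for PASCs, and 192 to 206 CPM for EASCs, and it moved with the members that were higher in both visceral groups. The sum of 17 myeloid and leukocyte genes was 78.1 to 88.1, 135 to 140.4, and 221 to 231 CPM in the same order, and that of 7 endothelial genes was 44.5 to 46.3, 11.7 to 14.7, and 30.6 to 33.5 CPM. The endothelial genes did not move together. In the same order, Tek had 2.55, 8.30, and 8.08 mean CPM, Kdr 18.1, 1.67, and 3.75, and Cdh5 9.20, 1.13, and 9.77. The part of these marker lists in the results on the S100 genes was not tested. In bulk RNA, fewer cells of a type and less RNA per cell cannot be told apart.

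All 10 genes lie on chromosome 2 of the rat genome rn6, in 2 blocks within a span of 4000732 bp. The first block, from S100a1 at 189900505 to S100a9 at 190100208, has 199704 bp and holds S100a1, S100a13, S100a14, S100a16, S100a3, S100a4, S100a5, S100a6, S100a7a, S100a8, and S100a9 in this order. S100a11 (193863185 to 193868646) and S100a10 (193892589 to 193901236) form the second, 38052 bp long and 3762976 bp further on. Between them lie genes of the skin barrier such as Flg (filaggrin) and Lor (loricrin). Of the 89 genes in the span, 60 had no count in any library, and 14 were S100 genes. S100a1 and S100a13 start on opposite strands 143 bp apart, and S100a4, S100a5, and S100a6 follow each other on the plus strand with gaps of 2045 and 1160 bp.

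**Figure D1:**
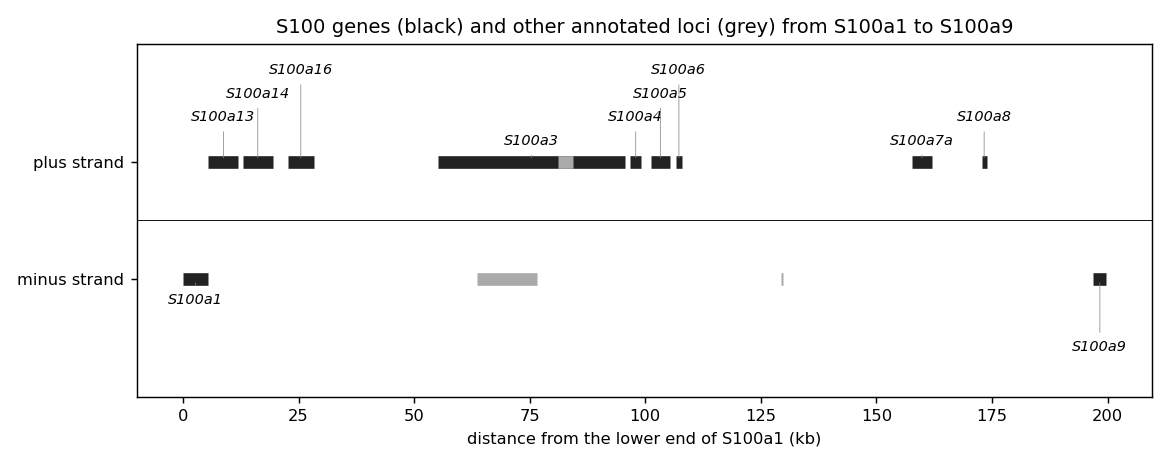
Map of the block from S100a1 to S100a9 on rn6, with the distance from the lower end of S100a1 in kb on the horizontal axis and the strand on the vertical axis; black bars are S100 genes and grey bars other annotated loci. S100a4, S100a5, and S100a6 stand next to each other on the plus strand, and S100a1 and S100a9 are on the minus strand.

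The starts of 4 members are shown because S100a4 and S100a6, near neighbours, differed in their pattern over the groups, while S100a6 and S100a11, far apart, were both higher in PASCs and EASCs, and S100a16 followed a pattern of its own. The sequences are the 100 bases before and the 50 bases from the annotated start, from RefSeq on GRCr8 (all plus strand), at chr2:178388429-178388578 for S100a4, chr2:178398437-178398586 for S100a6, chr2:181875032-181875181 for S100a11, and chr2:178313886-178314035 for S100a16. Capitals mark the TATA box, searched as TATAAA. They also mark the GC box, searched as GGGCGG. The site of AP-1 was searched as TGANTCA, and all motifs were searched on both strands.
S100a4: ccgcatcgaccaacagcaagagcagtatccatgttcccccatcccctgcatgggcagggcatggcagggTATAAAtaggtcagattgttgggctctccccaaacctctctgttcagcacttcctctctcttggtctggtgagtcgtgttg
S100a6: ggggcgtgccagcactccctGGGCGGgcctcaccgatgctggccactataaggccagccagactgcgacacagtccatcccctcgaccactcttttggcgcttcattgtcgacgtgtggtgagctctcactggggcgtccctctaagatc
S100a11: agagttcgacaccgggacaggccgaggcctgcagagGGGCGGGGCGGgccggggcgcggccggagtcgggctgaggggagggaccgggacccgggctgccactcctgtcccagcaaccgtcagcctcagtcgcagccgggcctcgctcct
S100a16: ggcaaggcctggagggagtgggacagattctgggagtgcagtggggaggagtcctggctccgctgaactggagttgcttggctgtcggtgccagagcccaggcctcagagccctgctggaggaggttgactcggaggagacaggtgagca
In S100a4 a TATA box began 31 bases before the start, whereas S100a6 had a GC box beginning 80 bases before it, and S100a11 had 2 that overlapped, beginning 64 and 59 bases before it. S100a16 had none of the 3 motifs. Of the 10 members, 7 had a sequence in the table, not S100a1, S100a8, and S100a10. Among these 7, the TATA box was also present in S100a9 and the GC box in S100a13, and the AP-1 site was in none. Of 33469 promoters of the same length, 7.27% held the TATA box, 25.3% the GC box, and 3.53% the AP-1 site. A match describes the letters and not a bound site.

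As a family, the 10 genes summed to 1197 ± 50.1 CPM in SASCs, while the sum was 3037 ± 249 CPM in PASCs and 2346 ± 131 CPM for EASCs (SD, n = 3 each). The sums of single libraries were 1150 to 1250 CPM, 2787 to 3285 CPM, and 2237 to 2490 CPM, so the groups did not overlap. S100a4, S100a6, S100a10, and S100a11 made up 98.4% ± 0.263 of the summed FPKM in SASCs, 99.1% ± 0.0691 in PASCs, and 98.4% ± 0.128 in EASCs (SD, n = 3 each). The leading gene changed between the groups. S100a4 gave 47.4% ± 1.60 of the summed FPKM in SASCs, 33.0% ± 1.30 in PASCs, and 23.3% ± 0.861 in EASCs (SD, n = 3 each). S100a6 gave 27.7% ± 2.02, 38.2% ± 1.66, and 37.6% ± 1.19 (SD, n = 3 each), and S100a11 gave 17.4% ± 1.28, 20.8% ± 2.73, and 27.2% ± 1.94 (SD, n = 3 each).

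**Figure D2:**
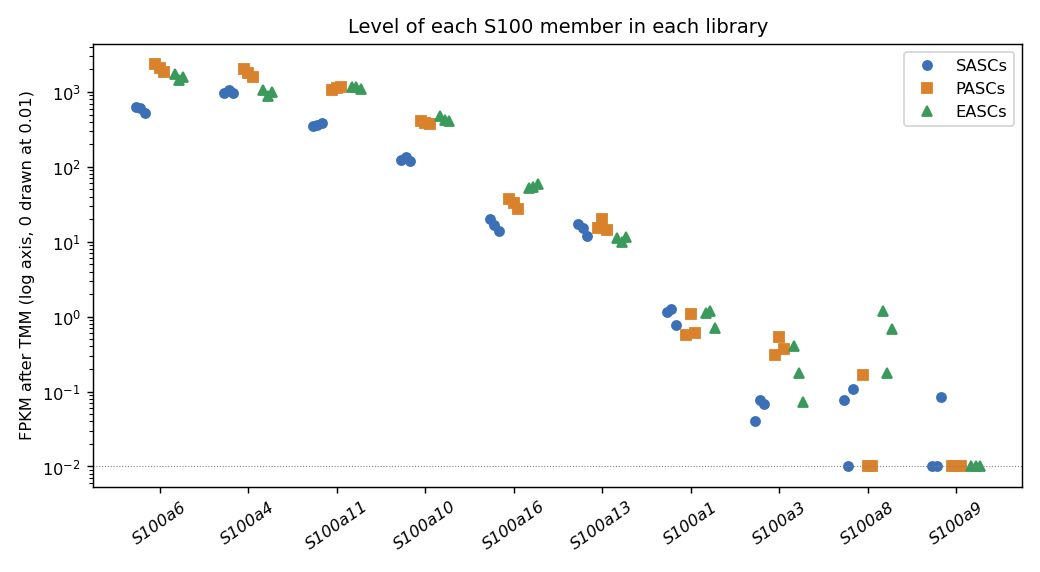
FPKM of the 10 S100 genes (log axis) in each of the 9 libraries, where circles are SASCs, squares PASCs, and triangles EASCs, and a value of 0 is drawn at 0.01. S100a6, S100a4, S100a11, and S100a10 lie above 100 FPKM in every library, S100a16 and S100a13 between 10 and 60, and the other 4 members below 2.

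Ranked by FPKM, the order in SASCs was S100a4 (962 to 1075), S100a6 (527.5 to 631), S100a11 (356 to 386), and S100a10 (120.5 to 134), with no overlap between neighbours. S100a16 (14.1 to 20.4) and S100a13 (11.8 to 17.2) came next in SASCs and overlapped. In PASCs S100a6 (1832 to 2356) and S100a4 (1594 to 2033) overlapped across libraries, and S100a11 (1070 to 1181) stood below both. In EASCs S100a6 (1455 to 1723) led, followed by S100a11 (1099 to 1180) and S100a4 (895 to 1062). Among the 14770 genes tested, S100a6 ranked 79 by mean FPKM in SASCs, 14 in PASCs, and 21 in EASCs, and S100a4 ranked 28, 19, and 37.

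Of the 10 members, 8 passed the filter on low counts, and S100a8 and S100a9 did not. A gene was called when its fold change was above 2 and its adjusted p under 0.05 in edgeR's quasi-likelihood test over all genes. In EASCs against SASCs, 5 members were called higher (S100a3, S100a6, S100a10, S100a11, and S100a16) and 0 lower, where 13.6% of all tested genes were called higher and 14.2% lower. S100a3 passed the filter through PASCs, where it was high, and in a fit of EASCs and SASCs alone it was not tested and 4 members were called. In PASCs against SASCs, 4 members were called higher (S100a3, S100a6, S100a10, and S100a11) and 0 lower, or 3 without S100a3, where 12.0% of all tested genes were called higher and 14.9% lower. Between EASCs and PASCs edgeR called 0 members, as did DESeq2 and limma, where 5.19% of all tested genes were called higher and 2.20% lower, although 5 members had an unadjusted p under 0.05 in edgeR, as did 39.0% of all tested genes. At an adjusted p under 0.05 and any fold change, edgeR found 6 of the 8 tested members different in EASCs against SASCs, 6 in PASCs against SASCs, and 4 in EASCs against PASCs, beside 69.7%, 69.2%, and 30.7% of all tested genes. The median log2 fold change of the 8 members was 1.53 in EASCs and 1.27 in PASCs against SASCs and -0.19 in EASCs against PASCs, and that of all tested genes was 0.0061, -0.0082, and -0.0065. Without S100a3 the median of the members is the value of S100a6 (1.43) in EASCs and of S100a16 (0.92) in PASCs against SASCs. In EASCs against PASCs it is then that of S100a11 (0.018). Both comparisons with SASCs use the same 3 SASC libraries and are not independent of each other.

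**Figure D3:**
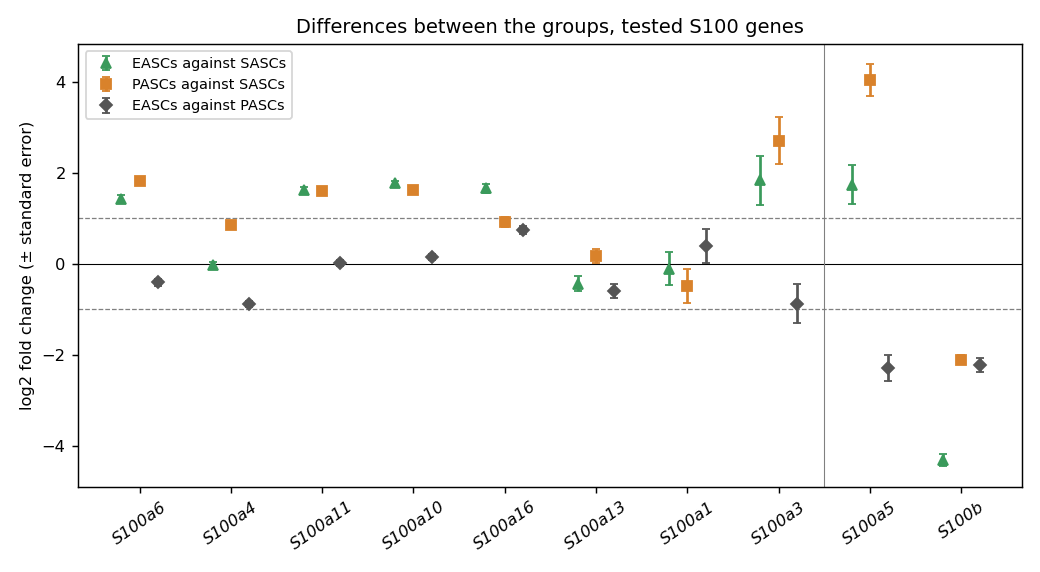
Log2 fold change of the 8 tested members and, right of the vertical line, of S100a5 and S100b, with the standard error of edgeR's fit; triangles are EASCs against SASCs, squares PASCs against SASCs, and diamonds EASCs against PASCs, and dashed lines mark a fold change of 2. S100a6, S100a10, and S100a11 lie above the upper line in both comparisons with SASCs, whereas S100a4 lies at -0.03 in EASCs and 0.85 in PASCs.

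S100a11, which binds annexin A1 and takes part in membrane repair and growth control, had 198, 204, and 214 CPM in the SASC libraries. Its levels were 594, 632, and 655.5 CPM in PASCs and 639.8, 655, and 610.1 CPM in EASCs. The SASC libraries lay far below the others, and those of PASCs and EASCs overlapped. Against SASCs, the log2 fold change (log2FC) was 1.63 in EASCs, with a standard error (SE) of 0.0575 and an adjusted p = 1.55e-19, and 1.61 in PASCs (SE 0.0574, adjusted p = 2.03e-19). Between EASCs and PASCs it was 0.02, with a 95% interval of -0.10 to 0.13 (adjusted p = 0.845), and its sign was negative when library totals were used without TMM (-0.047). The table also lists 5 copies of S100a11, none with more than 3 counts in a library. How reads that match several of them were counted is not stated.

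S100a10, the light chain of the annexin A2 tetramer and also known as p11, had 71.6, 77.0, and 69.1 CPM in SASCs. It reached 235.5, 219, and 214 CPM in PASCs and 272, 239, and 232 CPM in EASCs. Again the SASC libraries stood apart, and the other groups overlapped. EASCs exceeded SASCs by a log2FC of 1.77 (SE 0.0644, adjusted p = 3.23e-19), and PASCs did so by 1.62 (SE 0.0643, adjusted p = 2.50e-18). Between EASCs and PASCs the value was 0.15 (95% interval 0.027 to 0.28) and missed the threshold (adjusted p = 0.0604), and its adjusted p ranged from 0.0228 to 0.821 over the alternatives other than the test against a fold change of 2, with 0.0292 for the replicate number as a block and 0.821 for library totals. The ratio of S100a10 to S100a11 within a library was 0.343 ± 0.0276 in SASCs, 0.345 ± 0.0353 in PASCs, and 0.378 ± 0.0304 in EASCs (SD, n = 3 each), and it overlapped between all groups. These 2 genes are neighbours, 23942 bp apart.

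S100a6, or calcyclin, binds the calcyclin-binding protein Cacybp and several annexins. It was at 326, 313, and 272 CPM in SASCs. In PASCs it had 1216, 1084, and 945.5 CPM, and EASCs had 889, 751, and 815.5 CPM. No group overlapped another, with PASCs highest and SASCs lowest. Relative to SASCs it rose by a log2FC of 1.83 in PASCs (SE 0.0797, adjusted p = 1.92e-17) and of 1.43 in EASCs (SE 0.0789, adjusted p = 3.79e-15). Between EASCs and PASCs the log2FC was -0.40 (SE 0.0770, adjusted p = 1.61e-04), which is under the fold change for a call.

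S100a4, whose protein binds the heavy chain of non-muscle myosin IIA and is a marker of fibroblasts and migrating cells, did not share the pattern of its neighbour S100a6. It had 562, 628, and 571.5 CPM in SASCs and 620.1, 523, and 578 CPM in EASCs, ranges that overlap. In PASCs its level was 1187, 1054, and 931 CPM, above every library of the other groups. PASCs differed from SASCs by a log2FC of 0.85 (SE 0.0734, adjusted p = 6.32e-11), and EASCs from PASCs by -0.88 (SE 0.0735, adjusted p = 1.69e-10), in each case a fold change under 2. Between EASCs and SASCs it was -0.03 with a 95% interval of -0.18 to 0.12 (adjusted p = 0.691), a sign that changed with upper-quartile scaling (0.004). With library totals the value was -0.44 (adjusted p = 0.0139) and with totals without rRNA genes -0.16 (adjusted p = 0.0492), still under the fold change for a call.

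The ratio of S100a6 to S100a4, both per length and from the same library, does not depend on the scaling of libraries. This ratio was 0.656, 0.563, and 0.539 in SASCs, against 1.159, 1.164, and 1.150 in PASCs and 1.62, 1.63, and 1.60 in EASCs. S100a6 was thus below S100a4 in every SASC library and above it in every other library, and the groups did not overlap. The PASC libraries spread from 945.5 to 1216 CPM for S100a6 and from 931 to 1187 CPM for S100a4, while their ratio had an SD of 0.00722. The ratio of S100a11 to S100a4 also did not overlap between groups, at 0.369 ± 0.0265 in SASCs, 0.633 ± 0.107 in PASCs, and 1.17 ± 0.128 in EASCs (SD, n = 3 each). All ratios here were picked with their values in view and are given without a test.

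**Figure D4:**
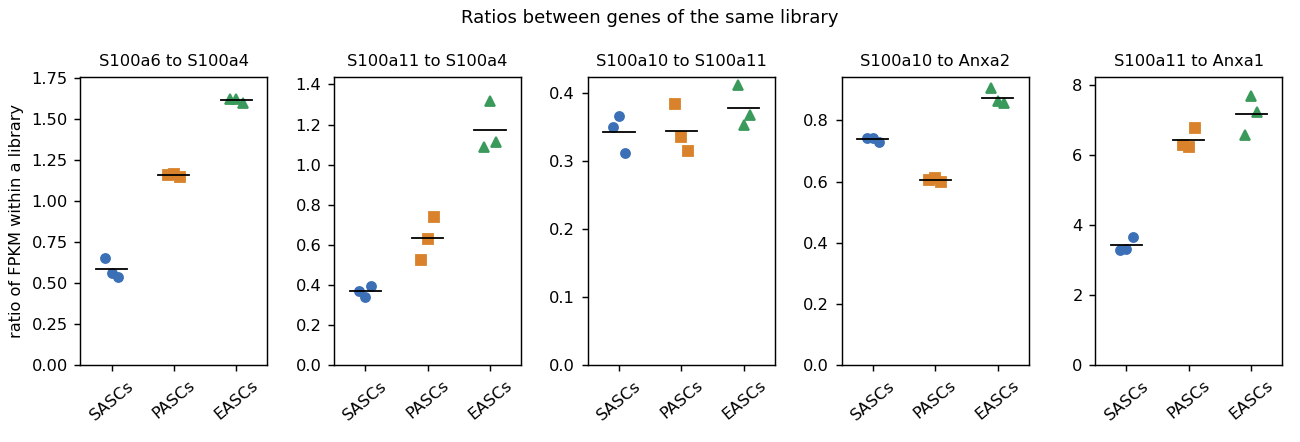
Ratios of FPKM between genes of the same library, 1 panel for each pair, with 1 point per library and a line at the mean of each group; every vertical axis starts at 0. S100a6 to S100a4 separates the 3 groups, at 0.586 in SASCs, 1.16 in PASCs, and 1.61 in EASCs on average, whereas S100a10 to S100a11 overlaps between them.

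S100a16, a broadly expressed member with a role in adipocyte differentiation, had 23.7, 19.6, and 16.4 CPM in SASCs. Its level was 43.0, 38.3, and 32.4 CPM in PASCs and 60.7, 62.4, and 68.1 CPM in EASCs, with no overlap between any of the groups. EASCs were above SASCs by a log2FC of 1.67 (SE 0.101, adjusted p = 2.88e-14) and above PASCs by 0.74 (SE 0.0954, adjusted p = 4.98e-07). PASCs were above SASCs by 0.92 (SE 0.103, adjusted p = 8.57e-09), just under the fold change for a call. Without SASCs replicate 1 (1.08) or without PASCs replicate 3 (1.02) this difference would be called.

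S100a13, which takes part in the release of Fgf1 and interleukin 1 alpha by the route that bypasses the Golgi, was a gene of moderate level. It had 8.31, 7.30, and 5.71 CPM in SASCs. Levels of 7.46, 9.64, and 6.94 CPM were found in PASCs and of 5.40, 4.86, and 5.64 CPM in EASCs. SASCs and PASCs overlapped, and EASCs lay just below both. Its log2FC in EASCs was -0.44 against SASCs (SE 0.159, adjusted p = 0.0172) and -0.61 against PASCs (SE 0.157, adjusted p = 0.00383), both under the fold change for a call. The first was -0.30 without SASCs replicate 1 (adjusted p = 0.133) and -0.37 without EASCs replicate 2 (adjusted p = 0.0689), and the second was -0.45 without PASCs replicate 2 (adjusted p = 0.0566). In PASCs against SASCs it was 0.17 (95% interval -0.14 to 0.48, adjusted p = 0.324). S100a1, which starts 143 bp away on the other strand and is best known from heart muscle, had only 13 to 38 counts per library. Its level was 1.21 ± 0.297, 0.858 ± 0.326, and 1.13 ± 0.287 CPM in SASCs, PASCs, and EASCs (SD, n = 3 each), and its libraries overlapped between all groups. The 95% intervals of the log2 fold change of S100a1 were -0.86 to 0.64 in EASCs and -1.27 to 0.28 in PASCs against SASCs, so a change of a fold of 2 in PASCs could not be resolved at this depth.

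S100a3, known mainly from hair cuticle, had 5, 8, and 6 counts in SASCs, against 35, 62, and 30 in PASCs and 42, 19, and 7 in EASCs. The PASC libraries lay above all SASC libraries, while EASCs ranged from the level of SASCs to that of PASCs. Compared with SASCs, S100a3 had a log2FC of 2.71 in PASCs (SE 0.516, adjusted p = 4.17e-05) and of 1.84 in EASCs (SE 0.547, adjusted p = 0.00427). The value in EASCs depended on 1 library, since without EASCs replicate 1 it was 1.05 (adjusted p = 0.120) and without EASCs replicate 3 it was 2.25. Against PASCs, EASCs differed by -0.88 (adjusted p = 0.130), and by -1.67 without EASCs replicate 1 (adjusted p = 0.0116). S100a3 is annotated from 189955630 to 189996029 and overlaps LOC100910139 and LOC685396, which had at most 2 counts in a library.

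S100a8 and S100a9 form calprotectin, an abundant protein of neutrophils and monocytes. S100a8 had 1, 0, and 1 counts in SASCs, against 2, 0, and 0 in PASCs and 13, 2, and 7 in EASCs. S100a9 had 1 count in 1 SASC library and 0 elsewhere, so the EASC counts of S100a8 came without any of S100a9. Over the group sums of 22 and 2 counts, the ratio of S100a8 in EASCs to SASCs was 11.3, with a counting interval of 2.78 to 99.1, and to PASCs 11.1 (2.74 to 97.7). When the filter on low counts was dropped, S100a8 had an adjusted p of 0.0347 in EASCs against SASCs and of 0.0721 against PASCs in edgeR. That fit gave S100a6 an adjusted p of 5.26e-138 in EASCs against SASCs, where the main fit gave 3.79e-15 at nearly the same log2FC. Its p-values thus cannot be read beside those of the main fit, and the difference in S100a8 rests on few counts. Of the 10 myeloid and leukocyte markers tested, 8 were called higher and 0 lower in EASCs against SASCs (all tested genes, 13.6% and 14.2%), 5 higher and 1 lower in PASCs against SASCs (12.0% and 14.9%), and 2 higher and 0 lower in EASCs against PASCs (5.19% and 2.20%). The 1 called lower was Cd163, at 27.8, 7.52, and 30.8 mean CPM in SASCs, PASCs, and EASCs. Lyz2, the most abundant of the list in PASCs and EASCs, was at 9.46 to 11.8 CPM in SASCs, against 56.2 to 60.6 CPM in PASCs and 80.3 to 89.8 CPM in EASCs, and Cd3e had 0 counts. The neutrophil genes differed in direction at very few counts, since in SASCs, PASCs, and EASCs the group sums were 7, 1, and 20 counts for Camp, 6, 2, and 0 for Ngp, and 23, 5, and 2 for Mpo. Their part in the counts of S100a8 was not tested.

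Outside the 10 members the table lists 8 S100 genes, of which S100a5 and S100b passed the filter. S100a5, which stands between S100a4 and S100a6, had 3, 15, and 4 counts in SASCs, against 143, 143, and 83 in PASCs and 27, 22, and 24 in EASCs. PASCs were highest, and the other groups did not overlap either. Against SASCs the log2FC of S100a5 was 4.04 in PASCs (SE 0.355, adjusted p = 8.48e-11) and 1.74 in EASCs (SE 0.426, adjusted p = 7.44e-04), and it was -2.30 in EASCs against PASCs (adjusted p = 4.34e-07). S100a5 passed the filter through PASCs and EASCs, where it was higher, so its p-values against SASCs add no support. Of its 22 counts in SASCs, 15 were in SASCs replicate 2, so the size of both folds is uncertain. Like S100a4 and S100a6 on either side, S100a5 was thus highest in PASCs, at 0.00421 ± 0.000198 of the FPKM of S100a6 there (SD, n = 3).

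S100b, the glial member on chromosome 20 (13130633 to 13142856), went the other way. SASCs held 31.2, 30.4, and 27.7 CPM of it, PASCs 6.503, 6.95, and 7.36 CPM, and EASCs 1.38, 1.70, and 1.34 CPM. S100b had a log2FC of -4.33 in EASCs (SE 0.133, adjusted p = 6.77e-21) and of -2.11 in PASCs (SE 0.106, adjusted p = 4.70e-16), and no groups overlapped. Among 8 Schwann cell and melanocyte markers, Mlana was at 7.37 to 9.85 CPM in SASCs and at most 0.037 CPM elsewhere, Sox10 had at most 3 counts in a library, and Dct and Tyr had 0 counts. The sum of these 8 markers was 34.97 to 37.8 CPM in SASCs, against 91.3 to 100.6 CPM in PASCs and 255 to 287 CPM in EASCs, led by Ncam1. Their part in the level of S100b was not tested. S100a14 had at most 11 counts in a library, S100z and S100a7a at most 4 and 2, and S100g, S100p, and S100vp had 0.

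Of 19 binding partners and targets of S100 proteins, 17 were tested. In EASCs against SASCs 6 were called higher and 0 lower, in PASCs against SASCs 7 higher and 1 lower, and in EASCs against PASCs 1 higher and 0 lower, beside shares of all tested genes of 13.6% and 14.2%, 12.0% and 14.9%, and 5.19% and 2.20% in the same order. Their median log2 fold changes were 0.37, 0.71, and -0.13. Anxa2, the partner of S100a10, was at 225, 243, and 221 CPM in SASCs, and at 908, 836, and 831 CPM in PASCs and 701, 645, and 632 CPM in the EASC libraries. It rose by a log2FC of 1.90 in PASCs (SE 0.0606, adjusted p = 1.65e-20) and of 1.52 in EASCs (SE 0.0600, adjusted p = 1.93e-18). Per length, the ratio of S100a10 to Anxa2 was 0.738 ± 0.00700 in SASCs, 0.605 ± 0.00548 in PASCs, and 0.874 ± 0.0264 in EASCs (SD, n = 3 each), without overlap. The gene of the S100a11 partner, Anxa1, differed by less than its partner did, by log2 fold changes of 0.57 in EASCs and 0.71 in PASCs. The ratio of S100a11 to Anxa1 was 3.43 ± 0.205 in SASCs, below 6.42 ± 0.305 in PASCs and 7.16 ± 0.568 in EASCs (SD, n = 3 each).

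For S100a6, the partner genes Anxa6 and Cacybp had log2 fold changes of 0.86 and 0.29 in EASCs and of 0.77 and 0.69 in PASCs against SASCs, with adjusted p between 3.63e-14 and 4.54e-04 and none past a fold change of 2. The S100a4 target Myh9 had 14, 37, and 12 counts in SASCs, against 383, 321, and 68 in PASCs and 142, 268, and 231 in EASCs. In EASCs Myh9 rose by a log2FC of 3.37 (adjusted p = 2.66e-08), and in PASCs by 3.56 (adjusted p = 7.58e-09), from counts that spread widely within PASCs. Among the cargoes of S100a13, Fgf1 rose by log2 fold changes of 1.92 in EASCs and 1.71 in PASCs, but it overlaps Nr3c1 and Arhgap26, which have many more counts, so its value is uncertain. Il1a had 2 counts over all SASC libraries, 81 in PASCs, and 43 in EASCs, which gives a ratio of 41.1 (counting interval 11.01 to 345) for PASCs and 22.1 (5.75 to 188) for EASCs.

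**Figure D5:**
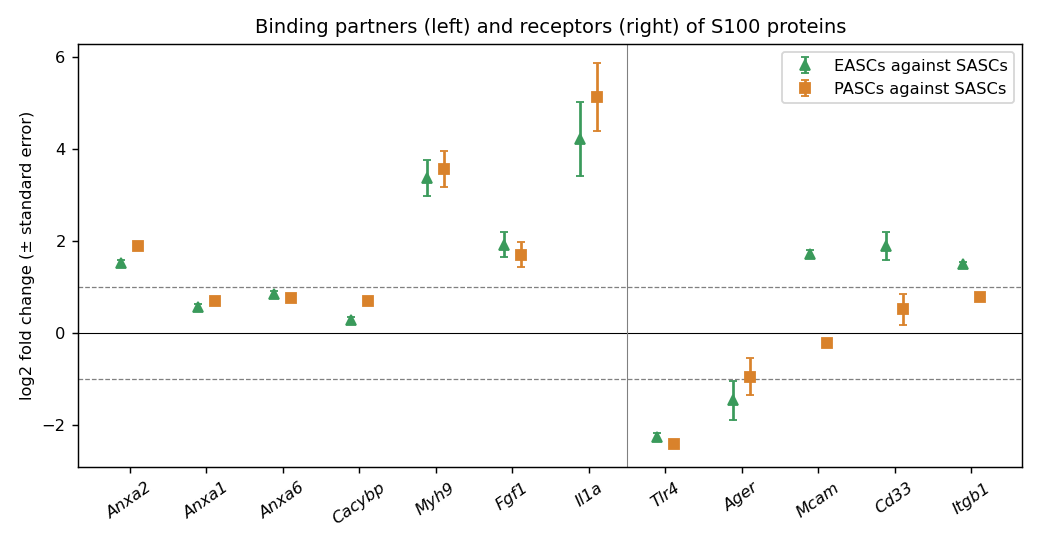
Log2 fold change against SASCs of 7 binding partners (left of the vertical line) and 5 receptors (right) of S100 proteins, with the standard error of edgeR's fit; triangles are EASCs, squares PASCs, and dashed lines mark a fold change of 2. Anxa2 lies above the upper line in both groups, Tlr4 below the lower line in both, and Mcam above it in EASCs alone.

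Of 10 receptors of released S100 proteins, 9 were tested, with 3 called higher and 2 lower in EASCs against SASCs, 0 higher and 1 lower in PASCs against SASCs, and 2 higher and 0 lower in EASCs against PASCs. With 9 genes, these counts are to be read against the same shares of all tested genes, and 1 lower of 9 in PASCs is near the 14.9% called there. Tlr4, the receptor of S100A8 and S100A9, had 57.5, 56.3, and 62.7 CPM in SASCs, but 10.3, 12.5, and 10.2 CPM in PASCs and 11.4, 12.4, and 13.2 CPM in the EASC libraries. Tlr4 changed by a log2FC of -2.26 in EASCs (edgeR, adjusted p = 1.51e-18) and of -2.41 in PASCs (edgeR, adjusted p = 4.50e-19). Ager, the gene of RAGE, had 7 to 45 counts in a library and a log2FC of -1.46 in EASCs (adjusted p = 0.00335), while in PASCs it was -0.95 (adjusted p = 0.0376), and it overlaps Stk19. Mcam, a surface receptor also found on endothelial cells and pericytes, was at 66.7, 66.5, and 67.6 CPM in EASCs and between 14.8 and 21.6 CPM in the other libraries, a log2FC of 1.72 against SASCs (adjusted p = 2.84e-16) and 1.94 against PASCs (adjusted p = 3.10e-16). Cd33 rose by 1.90 in EASCs from low counts (adjusted p = 3.75e-06), and Itgb1, which overlaps LOC102556297, by 1.497 (adjusted p = 1.12e-18).

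The genes nearest to a member in the pair of log2 fold changes against SASCs were found among all 14770 genes tested, for the 3 members with the highest mean FPKM. For S100a6 they were E2f1 (1.42 in EASCs and 1.84 in PASCs), Srgap3 (1.43 and 1.81), and Rfc2 (1.42 and 1.88), at distances of 0.0132, 0.0229, and 0.0454. For S100a11 they were Emd (1.65 and 1.61), Pfn1 (1.61 and 1.62), and RGD1563296 (1.65 and 1.60), at distances of 0.0209, 0.0225, and 0.0239. Pfn1, the gene of the actin-binding protein profilin 1, had 293, 899, and 892 mean CPM in SASCs, PASCs, and EASCs. For S100a4 they were LOC102548111, Rps4y2, and Msh5, at distances of 0.0172, 0.0619, and 0.0623. LOC102548111 overlaps Uck2 and Rps4y2 overlaps Tmtc1, which had up to 1428 and 476 counts in a library, so their values are uncertain. Msh5 was low, at 0.652 to 1.27 mean CPM. These distances rest on 3 group means of the same 9 libraries and are descriptions.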

How the data were processed

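RNA of 9 libraries, 3 each of SASCs, PASCs, and EASCs, was analysed from 1 table. Per the methods, the authors trimmed paired-end reads with cutadapt and FastX-Toolkit, aligned them with TopHat to rn6, and deposited whole-number counts per gene, not normalized. The labels name rn5 and TopHat2; the positions in the table fit rn6. The counting tool, strand use, and handling of shared reads are not given in the sources used here. Reads of ribosomal RNA were counted for overlapping genes at once.

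The 10 members, the lists, and the tests were chosen with earlier results of these data known. Counts were scaled by TMM and filtered with filterByExpr (minimum count 10), which left 14770 of 35362 genes, and fitted in edgeR 4.0.16 (R 4.3.3) by quasi-likelihood with all 9 libraries and no block. P-values were adjusted over all genes by Benjamini-Hochberg, and calls were made at an adjusted p under 0.05 and a fold change above 2. The script was tested on simulated data. FPKM used the gene length of the table. The rule for named genes covered every S100 gene of the table, the 7 known partners of members (more than the 5 set for other lists), at most 5 of the called genes with the largest change of each other list, and the 3 genes nearest to a member in pattern. Depth was 17591916 to 30299032 counts per library. Alternatives were DESeq2 1.42.0, limma 3.58.1 on log2(FPKM + 1), upper-quartile scaling, library totals, no filter, a block for the replicate number, a fit of 2 groups alone, other thresholds, and each library left out. Library totals without rRNA genes were added after seeing the data. Promoters came from RefSeq (GRCr8), whose gene IDs matched all 10 members. Proteins and metabolite data were not analysed here.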

Additional observations from a re-analysis of the deposited data

Results flagged for a closer look

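The effect against SASCs differed between EASCs and PASCs, by edgeR's test of EASCs against PASCs, for 6 of the 10 S100 genes tested, at an adjusted p under 0.05 and any fold change, a rule that 30.7% of all tested genes passed in either direction. The log2 fold change was -0.88 for S100a4 (adjusted p = 1.69e-10), -0.40 for S100a6 (adjusted p = 1.61e-04), and -0.61 for S100a13 (adjusted p = 0.00383), which was -0.45 without PASCs replicate 2 (adjusted p = 0.0566). S100a16 was higher in EASCs, at 0.74 (adjusted p = 4.98e-07). S100a5 stood at -2.30 (adjusted p = 4.34e-07) and S100b at -2.22 (adjusted p = 2.88e-12). Groups of 3 libraries were not searched for outliers.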

How the results depend on the processing

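Of 455 values of the 8 tested members under alternatives, 431 kept their direction and their side of the threshold, 4 lost the call, 10 gained it, and 10 changed sign, all of the last small in size. S100a4 in EASCs against SASCs changed to 0.004 with upper-quartile scaling, moved to -0.44 with library totals and to -0.16 with totals without rRNA genes (adjusted p = 0.0139 and 0.0492 in edgeR), and ranged from -0.091 to 0.033 with 1 library left out. S100a11 in EASCs against PASCs was -0.047 with library totals, -0.0365 with totals without rRNA genes, and -0.020 to 0.053 with 1 library left out. S100a13 in PASCs against SASCs was -0.16 with library totals. S100a1 in EASCs against SASCs ranged from -0.28 to 0.087 with 1 library left out. With library totals the median of all genes moved to -0.39, -0.33, and -0.08 in the 3 comparisons, and the summed level of the 10 members to 1419, 2870, and 2112 CPM for SASCs, PASCs, and EASCs. At an adjusted p under 0.05 and any fold change, 4 of the 8 tested members differed between EASCs and PASCs, beside 30.7% of all tested genes. With each library left out in turn, 4 to 5 members were called in EASCs and in PASCs against SASCs, and 0 to 1 in EASCs against PASCs, where the 1 was S100a3 without EASCs replicate 1. In the fit of EASCs and SASCs alone S100a3 did not pass the filter, which left 4 members called. S100a3 also lost its call with limma on log2(FPKM + 1) in EASCs (0.19) and PASCs (0.40), with its low level on that scale, and in EASCs when tested against a fold change of 2 (adjusted p = 0.104, edgeR). With the replicate number as a block, 5, 4, and 0 members were called, and no call changed. Samples with the same number had correlations of their deviations of -0.0348 to 0.0380, and 1 of 9 correlated best with its own number in both other groups, so the numbers were not taken to pair the samples. Depth limits S100a1, S100a3, and S100a8, which rest on at most 62 counts per library. The cause of these shifts was not tested.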

Other observations

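Beside the S100 genes, 32 genes of other EF-hand calcium sensors were examined, of which 26 were tested. In EASCs against SASCs 6 were called higher and 1 lower, in PASCs against SASCs 5 higher and 1 lower, where 13.6% and 14.2%, and 12.0% and 14.9%, of all tested genes were called. Between EASCs and PASCs 0 were called in edgeR (all tested genes, 5.19% higher and 2.20% lower), and 5 had an adjusted p under 0.05 at any fold change, as did 30.7% of all tested genes. Their median log2 fold change was 0.46 in EASCs and 0.40 in PASCs against SASCs. A difference from the S100 members, a list drawn up with earlier results known, was not tested. Ncs1, neuronal calcium sensor 1, was at 15.1, 13.7, and 13.96 CPM in SASCs, 45.6, 43.6, and 41.9 CPM in PASCs, and 46.2, 45.3, and 44.8 CPM in the EASC libraries, but it overlaps Fnbp1. Calm2, a calmodulin gene, rose by a log2 fold change of 1.15 in EASCs and of 1.48 in PASCs. Nucb2, nucleobindin 2, rose by 1.505 in EASCs (adjusted p = 6.64e-19, edgeR) and was higher in PASCs by 0.82. Calml4 rose by 2.88 and 1.96 from low counts. Pvalb, the gene of the muscle protein parvalbumin, had 112, 135, and 88 counts in SASCs and 0 in every library of PASCs and EASCs. It was thus at least 29.2-fold lower in PASCs and at least 34.6-fold lower in EASCs. The floor was 3 counts in the library of the group with the smallest size after TMM scaling.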
